A study of Homo sapiens with 9 samples.

Results

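The 10 genes described here, ACTA2, ACTB, ACTN1, TPM1, TPM2, TPM4, MYL9, CNN1, TAGLN and SRF, encode actins, proteins that bind the actin filament, and a transcription factor that regulates many of them. They were chosen by name, and every probe set annotated with exactly 1 of these symbols was taken, which gave 36 probe sets. The arrays hold 54675 probe sets, of which 41097 carry a single symbol, for 19775 genes in all. RNA came from U87, an established human glioma cell line, on 9 one-colour Affymetrix arrays in 3 groups of 3 arrays, which the labels call biological replicates. RNA was taken 24 h after transfection with 50 nM of a small RNA duplex. One group received miR-376a*A, the unedited form of a microRNA. The duplex miR-376a*G, the form in which an edited adenosine reads as G, went into another, and a control microRNA into the last. All 3 groups share the cell line, the lipid transfection reagent, the dose and the time, so each comparison is between transfected cells, in 1 cell line. The comparisons ask what each form of the microRNA does to the RNA of these genes, and whether the forms differ.

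A microRNA binds messenger RNAs mainly through its seed, bases 2 to 8, and lowers their level or translation. RefSeq (GRCh38.p14) lists the 5p strand of MIR376A1 at chr14:101040788-101040809, plus strand, and it is shown here because the name miR-376a* is the older name of a 5p strand. The labels give the name alone, so whether the transfected duplex has this sequence was not tested. The seed is in capitals.
hsa-miR-376a-5p: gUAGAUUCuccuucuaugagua

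Actin monomers assemble into filaments, tropomyosins wind along them and set which other proteins can bind, alpha-actinin crosslinks them, and myosin II pulls on them once its light chain is phosphorylated. Serum response factor, SRF, binds the CArG box in the promoters of actin and many actin-binding genes, and its cofactors of the MRTF family are held back by free actin monomers, so the state of the filament feeds back on transcription. ACTA2, CNN1 and TAGLN are best known as markers of differentiated smooth muscle, yet cultured tumour cells, fibroblasts and pericytes also make several of these proteins.

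Values below are the deposited probe set signals, on a linear scale, and differences are of log2(signal + 16), with the standard error (SE) of the model fit. The offset of 16 makes the fold of a dim probe set smaller than the ratio of its signals. A difference was called when the adjusted p of limma's moderated test, Benjamini-Hochberg over 32771 probe sets, was under 0.05. A probe set entered the test when its mean log2 value was at or above the 40th percentile, which is a signal of about 11.3. Of the 36 probe sets, 25 were tested and 11 were too dim, with signals between 0.294 and 22.4. Each gene is read from its brightest probe set, with the others beside it. Signals of different probe sets are not compared with each other, because each has its own response.

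The arrays were alike in scale, with a 2% trimmed mean near 100.01 and medians between 18.0 and 20.4. Control replicates 1 and 2 lay farthest from their group's mean, with a standard deviation of 0.166 and 0.145 over probe sets against 0.102 to 0.114 on the other 7 arrays. Of 12 glioma and glial markers, 8 passed the filter on dim probe sets, among them VIM, NES, SOX2 and CD44, while GFAP, S100B, AQP4 and OLIG1 did not. SOX2 was dim, with group means of 19.6 to 22.7. None of the 8 was called with the A form, and 2 fell with the G form, SLC1A3 by 0.53 and CHI3L1 by 0.42. CHI3L1 was also higher with the A form than with the G form, by 0.36. Of 8 smooth muscle markers, 5 passed it, and MYOCD, LMOD1 and PLN did not. The summed signal of all 8 was 292 to 311 with the A form, 295 to 314 with the G form and 331 to 382 in control cells. SMTN, with means of 173.8, 187.1 and 231.8, was the only one of them called lower, and DES was called higher with the G form. The SMTN call with the G form, at -0.28, ended without any one of 5 arrays (adjusted p of 0.0506 to 0.0881). Its 2 other tested probe sets, at -0.08 and 0.02 with the G form, were not called. The summed signal of 6 pericyte markers, of which 5 passed the filter, was 559 to 599, 404 to 420 and 402 to 410 in the same order of groups.

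With the A form, 3 of the 9 tested genes rose, ACTA2, TPM1 and SRF, and 1 fell, TPM4. Over all 13695 genes tested, 10.5% rose and 12% fell. Counted by probe sets, 7 rose and 1 fell of 25, against 21.3% called in either direction over all probe sets, but 5 of the 7 belong to TPM1. With the G form, TPM1 and SRF rose and TPM4 fell, where 13.3% of all genes rose and 15.3% fell. By probe sets, 6 rose and 2 fell, against 25.8% called. Between the forms only ACTA2 was called, higher with the A form, against 10.8% of all genes higher and 9.68% lower. By probe sets 2 of 25 were higher with the A form and none lower, against 18.1% called. The median difference of the 9 genes was 0.05 with the A form and -0.03 with the G form, next to 0.02 and -0.01 over all genes. Both comparisons with control use the same 3 control arrays.

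**Figure D1:**
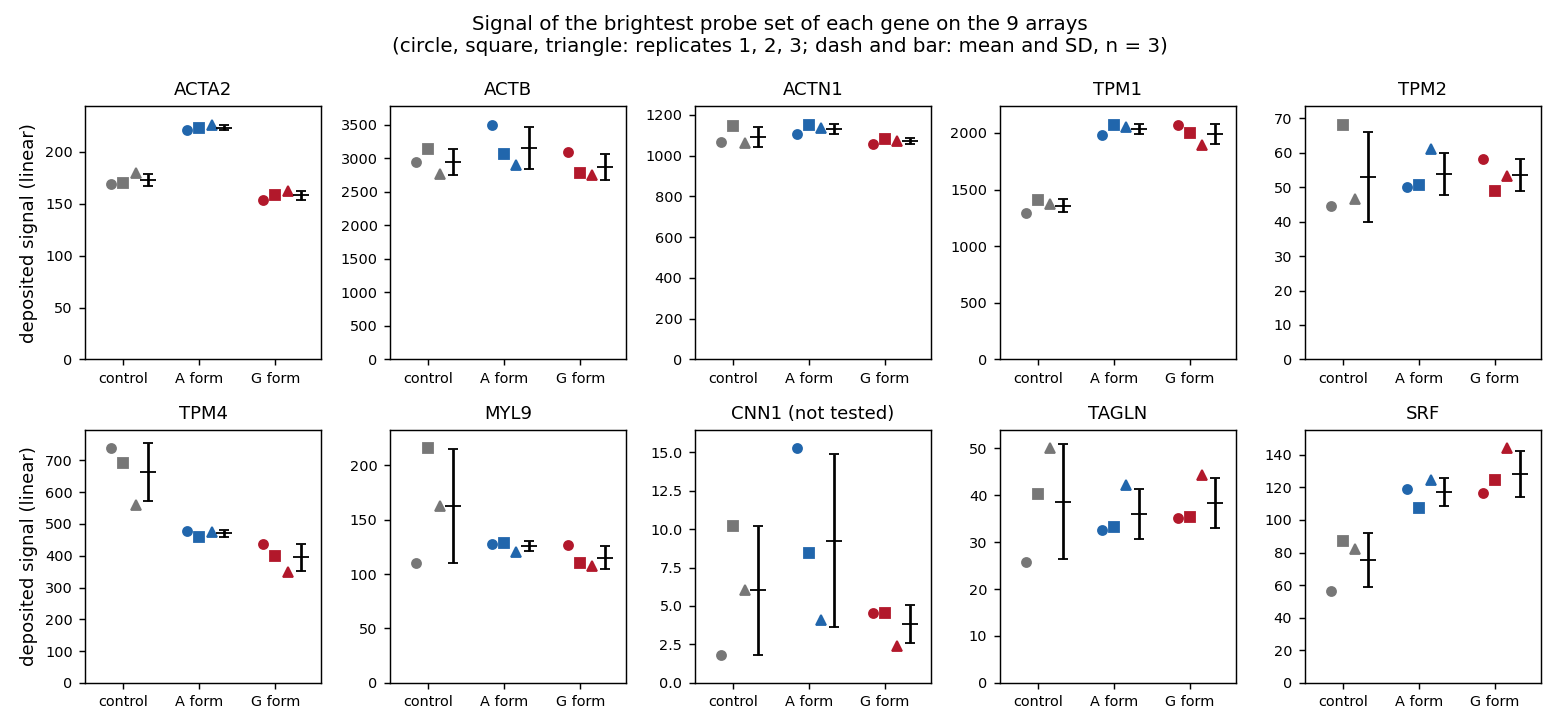
Deposited signal (linear, y axis from 0) of the brightest probe set of each of the 10 genes on each array, with replicates 1, 2 and 3 as circle, square and triangle and the mean with its SD (n = 3) beside them. TPM1 and SRF sit above all control arrays and TPM4 sits below them in both treated groups, while ACTA2 is above control with the A form only; CNN1 was too dim to test.

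ACTA2, the alpha actin of smooth muscle, gave the clearest difference between the forms. Its signal was 169.0, 169.6 and 179.7 in control cells, 221.0, 223.0 and 225.8 with the A form, and 153.2, 158.2 and 162.6 with the G form. The 3 groups did not overlap, and the A form arrays were the highest and lay closest together. ACTA2 rose by 0.34 ± 0.07 (SE), or 1.27-fold, with the A form (adjusted p = 0.0033, limma). With the G form the difference was -0.12 ± 0.07, which was not called (adjusted p = 0.233), although each G array lay below each control array. The A form exceeded the G form by 0.46 ± 0.07, or 1.38-fold (95% interval 0.31 to 0.61, adjusted p = 0.000416). In RNA from a whole culture, fewer cells of a type and less RNA per cell cannot be told apart. Of the 5 pericyte markers that passed the filter, PDGFRB, RGS5, CSPG4 and MCAM rose with the A form by 0.43 to 0.50, while NOTCH3 was not called there and ANPEP stayed at mean signals of 4.19 to 6.13. With the G form, RGS5 rose by 0.31, and PDGFRB and NOTCH3 fell by 0.32 and 0.51. The G form mean of NOTCH3, 8.96, lay below the filter signal of about 11.3. Between the forms PDGFRB, NOTCH3 and MCAM were higher with the A form, by 0.76, 0.71 and 0.53. The part of these markers in the ACTA2 differences was not tested. SMTN, a smooth muscle marker, fell by 0.38 with the A form, with -0.20 and -0.08 and no call on its 2 other probe sets, and the other 4 tested smooth muscle markers were not called there. The 2 other ACTA2 probe sets were not tested and had signals between 0.294 and 8.50.

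ACTB, the cytoplasmic beta actin that makes up much of the cortical and stress fibre network, was not called in any comparison. Its brightest probe set read 2944, 3146 and 2760 in control cells, 3497, 3065 and 2897 with the A form, and 3093, 2781 and 2744 with the G form. The groups overlapped. The differences from control were 0.09 with the A form (95% interval -0.07 to 0.26, adjusted p = 0.427) and -0.04 with the G form (95% interval -0.20 to 0.13, adjusted p = 0.762). All 6 ACTB probe sets gave close values, from 0.08 to 0.11 and from -0.05 to -0.03, and several of them read the same transcript, so they are not separate evidence. A further 9 probe sets are annotated to both ACTB and ACTG1, the gamma cytoplasmic actin, and none of them was called. A set of 3 ACTB probe sets lies along the transcript as a check of RNA integrity, and the ratio of the 3' to the 5' signal was 0.869 to 0.908 over the 9 arrays. In the list of other actin isoforms, ACTA1, ACTC1, ACTG1 and ACTG2, 3 genes were tested and none was called in any comparison. ACTG1 had no probe set with its symbol alone, and the 3 tested were dim, with group means of 9.91 to 37.1.

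ACTN1, the non-muscle alpha-actinin that bundles filaments at adhesions, read 1066, 1146 and 1060 in control cells, 1105, 1150 and 1138 with the A form, and 1056, 1083 and 1072 with the G form. The arrays of each treated group overlapped the control arrays. The differences were 0.05 ± 0.06 (95% interval -0.07 to 0.17) and -0.03 ± 0.06 (95% interval -0.15 to 0.10), with adjusted p of 0.551 and 0.782. The 3 tested ACTN1 probe sets, none of them called, lay between 0.04 and 0.12 with the A form and between -0.13 and 0.03 with the G form. The fourth was too dim to test, with signals between 3.80 and 7.31.

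**Figure D2:**
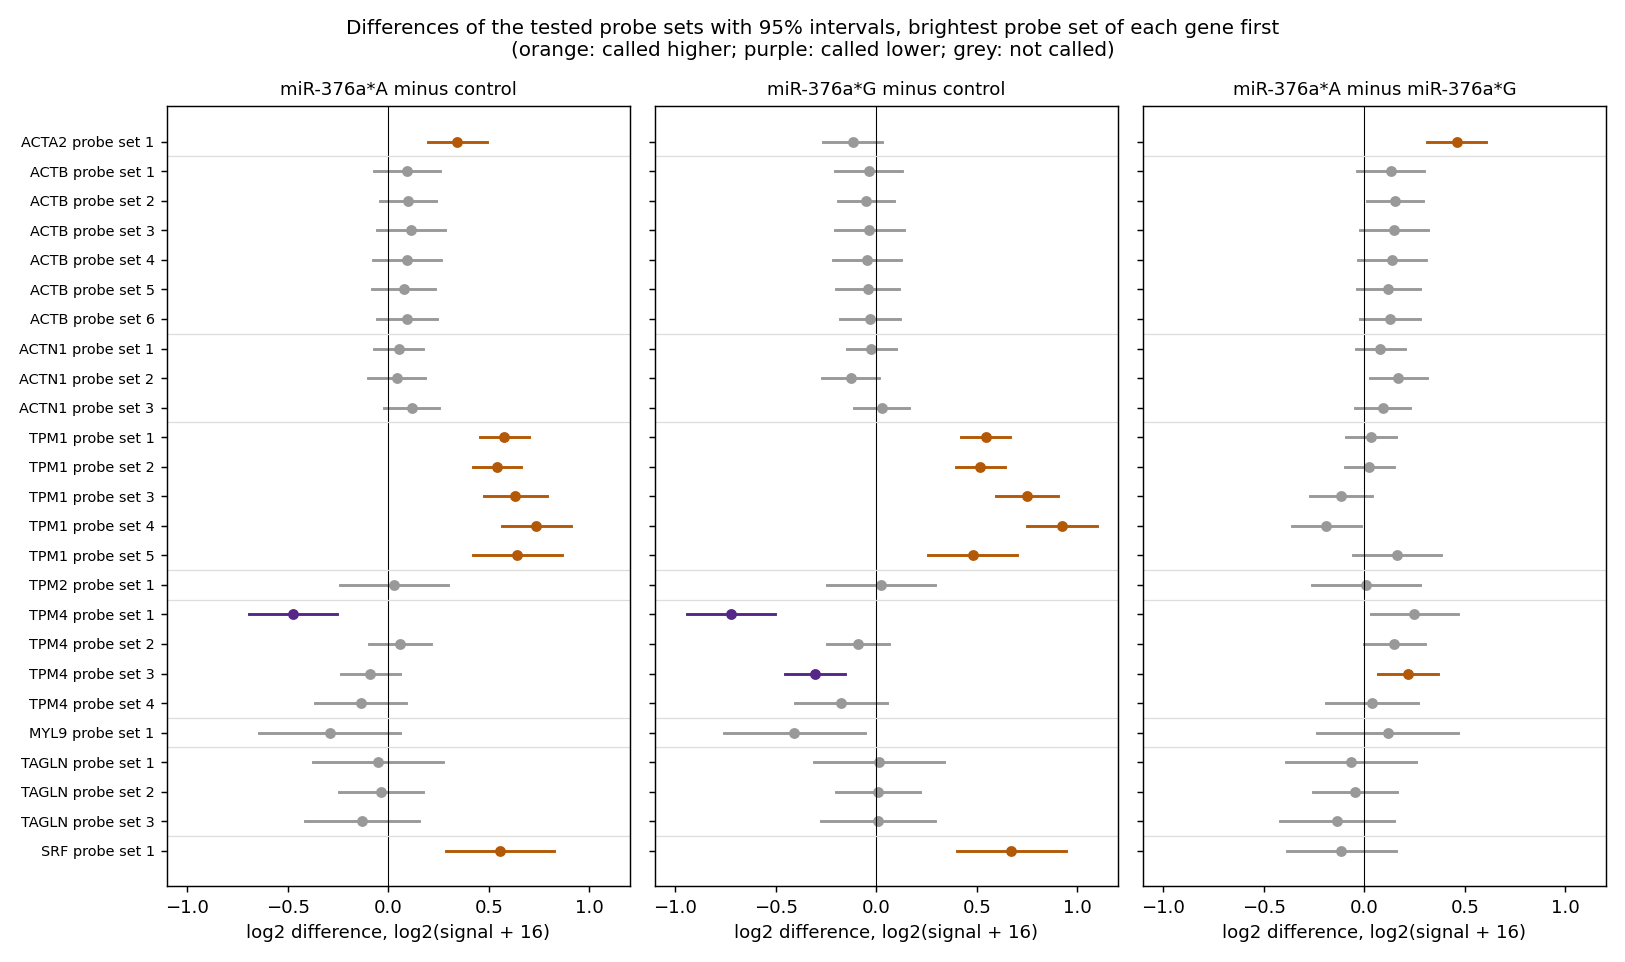
Log2 difference of log2(signal + 16) with its 95% interval (x axis) for the 25 tested probe sets, ordered by gene and then by brightness, in the 3 comparisons. All 5 tested TPM1 probe sets lie to the right of 0 against control in both forms, whereas the 4 tested TPM4 probe sets range from -0.47 to 0.06 with the A form and from -0.72 to -0.09 with the G form.

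The tropomyosin genes moved in different directions. TPM1, whose transcripts include both muscle and cytoskeletal isoforms, rose with both forms. Its brightest probe set read 1296, 1409 and 1371 in control cells, 1981, 2067 and 2054 with the A form, and 2069, 1998 and 1897 with the G form. Every treated array was above every control array. The rise was 0.58 ± 0.06, or 1.49-fold, with the A form (adjusted p = 1.56e-05) and 0.54 ± 0.06, or 1.46-fold, with the G form (adjusted p = 1.99e-05). The forms themselves differed by 0.03 (95% interval -0.09 to 0.16, adjusted p = 0.744).

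All 5 tested TPM1 probe sets rose with both forms, by 0.54 to 0.74 with the A form and by 0.48 to 0.92 with the G form. They share a gene and partly its transcripts, and the table does not say which isoforms each one reads. The fourth by brightness had the largest difference: 134.4, 139.1 and 151.3 in control cells became 240.5, 267.1 and 232.2 with the A form and 292.8, 292.0 and 264.6 with the G form. That is 1.67-fold and 1.90-fold. The fifth had the A form highest, with a mean of 47.8 in control cells, 82.9 with the A form and 72.6 with the G form. None of the 5 was called between the forms, where the differences ran from -0.19 to 0.16. The sixth probe set was too dim to test.

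TPM2, the beta tropomyosin of muscle and stromal cells, showed no call. Its signal was 44.5, 68.1 and 46.6 in control cells, 50.0, 50.5 and 61.0 with the A form, and 58.3, 49.0 and 53.2 with the G form. The 3 groups overlapped, and control replicate 2 was the highest array. The differences of 0.03 and 0.02 had wide intervals, -0.24 to 0.30 with the A form and -0.25 to 0.29 with the G form. The other 3 TPM2 probe sets were not tested.

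TPM4, a cytoskeletal tropomyosin of stress fibres, fell on its brightest probe set with both forms. A CArG box, the SRF binding sequence, lies in the 250 bases before one of its RefSeq start sites, GRCh38.p14 chr19:16067288-16067537, plus strand, and the window is printed with the box in capitals to show its context.
TPM4: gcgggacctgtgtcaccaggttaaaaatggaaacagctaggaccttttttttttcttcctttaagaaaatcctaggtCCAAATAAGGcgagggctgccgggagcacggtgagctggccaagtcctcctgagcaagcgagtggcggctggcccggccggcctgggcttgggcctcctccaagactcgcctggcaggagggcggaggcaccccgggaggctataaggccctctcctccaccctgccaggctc

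The TPM4 signal was 737.5, 692.5 and 560.1 in control cells, 477.9, 458.6 and 473.5 with the A form, and 435.3, 398.9 and 349.5 with the G form. The groups did not overlap, with control highest and the G form lowest. TPM4 fell by 0.47 ± 0.10 on the log2 scale, 1.39-fold, with the A form (adjusted p = 0.00507) and by 0.72 ± 0.10, 1.65-fold, with the G form (adjusted p = 0.000209). The difference between the forms, 0.25 ± 0.10, was not called (adjusted p = 0.11).

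The other TPM4 probe sets did not all follow. The second read 478.1, 519.7 and 452.4 in control cells, 485.8, 520.0 and 505.2 with the A form, and 472.7, 456.8 and 428.2 with the G form, and it was not called (differences of 0.06 and -0.09). The third read 387.3, 429.2 and 406.2, then 390.5, 365.8 and 389.7, then 312.9, 341.1 and 325.1 in the same order of groups. It fell with the G form, by 0.31 ± 0.07 (adjusted p = 0.0055), and had a difference of -0.09 with the A form (adjusted p = 0.39). On the third probe set the A form was above the G form by 0.22 ± 0.07 (adjusted p = 0.0441), a call that ended when any of 7 single arrays was left out (adjusted p of 0.0574 to 0.138). The fourth, a dim one, read 22.3, 19.6 and 18.0 in control cells, 20.5, 14.1 and 15.7 with the A form, and 16.1, 16.8 and 14.6 with the G form, and was not called (differences of -0.14 and -0.18). The fifth was not tested, with signals between 2.43 and 14.0. With the mean of all tested TPM4 probe sets in place of the brightest, the A form difference was -0.16 (adjusted p = 0.103) and no longer called. Which transcripts the probe sets read was not tested.

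The 4 genes whose values over the 9 arrays lay nearest to the brightest TPM4 probe set were ZNF45, a zinc finger protein, LGALS3BP, a secreted galectin-binding protein, OSBPL3, a lipid-binding protein, and RAB31, a small GTPase of vesicle traffic. Nearness is the Euclidean distance between log2 values, each array taken as its difference from the gene's own control mean. It was 0.251 for ZNF45, 0.262 for LGALS3BP, 0.282 for OSBPL3 and 0.312 for RAB31. Their differences from control were -0.57 to -0.43 with the A form and -0.79 to -0.68 with the G form.

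**Figure D3:**
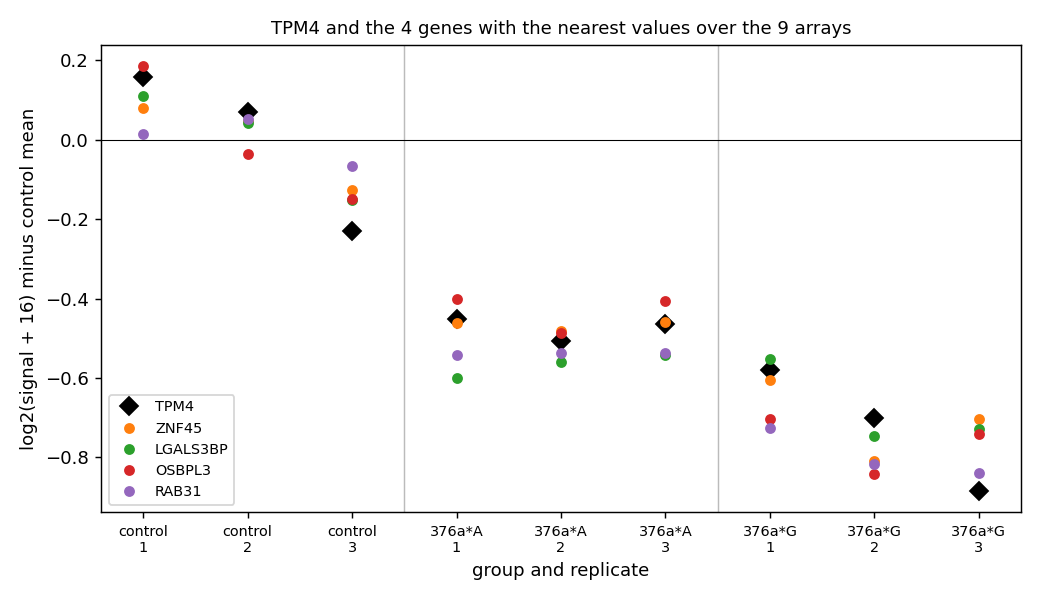
Log2(signal + 16) minus the gene's own control mean (y axis) on each of the 9 arrays (x axis) for the brightest TPM4 probe set, as diamonds, and the 4 genes nearest to it, as circles. All 5 genes lie below 0 on the 6 treated arrays, and control replicate 3 lies below the other control arrays in each.

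MYL9, the regulatory light chain through which smooth muscle and non-muscle myosin II is switched on, was not called, and its control arrays were far apart. They read 110.5, 215.6 and 162.2, against 128.0, 128.6 and 120.5 with the A form and 127.2, 109.9 and 107.8 with the G form. Control replicate 1 lay within the treated arrays, and control replicates 2 and 3 lay above all of them. The differences were -0.29 ± 0.16 (adjusted p = 0.226) and -0.41 ± 0.16 (adjusted p = 0.0832). Without control replicate 1 they were -0.52 (adjusted p = 0.00469) and -0.64 (adjusted p = 0.00105), both past the threshold, so this array decides the call. The second MYL9 probe set was not tested.

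CNN1 and TAGLN, calponin and transgelin, are actin-binding proteins used as smooth muscle markers. CNN1 was too dim to test on its only probe set, which read 1.83, 10.2 and 6.03 in control cells, 15.2, 8.42 and 4.08 with the A form, and 4.55, 4.55 and 2.37 with the G form. The groups overlapped. TAGLN read 25.8, 40.2 and 50.0 in control cells, 32.6, 33.2 and 42.1 with the A form, and 35.2, 35.4 and 44.4 with the G form. The control arrays spanned all 6 treated arrays, and no TAGLN probe set of 3 was called. For the brightest, the difference was -0.05 (95% interval -0.37 to 0.27) with the A form and 0.01 (95% interval -0.31 to 0.34) with the G form.

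SRF, the transcription factor of this group, rose with both forms. The gene holds a pair of CArG boxes, in capitals, in the 250 bases before a RefSeq start of its own, GRCh38.p14 chr6:43171019-43171268, plus strand.
SRF: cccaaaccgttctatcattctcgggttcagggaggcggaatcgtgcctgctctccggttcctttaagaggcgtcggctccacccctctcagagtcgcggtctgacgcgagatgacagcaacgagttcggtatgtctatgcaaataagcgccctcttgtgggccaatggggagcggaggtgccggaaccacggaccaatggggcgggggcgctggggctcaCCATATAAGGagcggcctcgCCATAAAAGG

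The CArG box was searched by its exact form, on both strands at once since the form is its own reverse complement, in windows of 300 bases that run from 250 bases before to 50 after each RefSeq start. It was present in 454 of 35116 windows, 1.29%, and in 3 of the 15 windows found for 7 of the genes, those of SRF, TPM4 and ACTN1. ACTB, MYL9 and TAGLN had no window. In SRF the boxes begin 30 and 10 bases before the start, in TPM4 173 bases and in ACTN1 171 bases. In each of these genes they lie at 1 of its RefSeq starts, with no match at the others. SRF rose, TPM4 fell on its brightest probe set and ACTN1 was not called. Boxes that differ from the exact form by even a single base were not counted. A window without a match, such as those of ACTA2, may therefore still hold such a box. A match of letters is a description and was not tested as a binding site.

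The brightest SRF probe set read 56.7, 87.05 and 82.4 in control cells, 119.0, 107.5 and 124.4 with the A form, and 116.4, 124.7 and 143.9 with the G form. All 6 treated arrays were above all control arrays, and control replicate 1 was the lowest. SRF rose by 0.56 ± 0.13, or 1.47-fold, with the A form (adjusted p = 0.00716) and by 0.67 ± 0.13, or 1.59-fold, with the G form (adjusted p = 0.00174). The forms differed by -0.12 (95% interval -0.39 to 0.16, adjusted p = 0.58). The second SRF probe set, too dim to test, lay the other way: it read 15.7, 14.0 and 14.2 in control cells, 11.8, 10.1 and 15.1 with the A form, and 9.06, 5.10 and 5.15 with the G form. The calls of ACTA2 with the A form and between the forms, and of TPM1, SRF and the brightest TPM4 probe set with both forms, held when each of the 9 arrays was left out in turn.

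The proteins that work with these genes were counted in 11 lists, each gene again read from its brightest probe set. Their shares are set beside the background of 10.5% higher and 12% lower with the A form, and 13.3% and 15.3% with the G form. Among SRF cofactors and regulators, 1 of 9 tested genes rose and 3 fell with the A form, and none rose and 5 fell with the G form. ELK4, a ternary complex factor that binds beside SRF, fell by 1.06 with the G form, from a mean of 242.0 to 107.7 or 2.08-fold (adjusted p = 3.02e-06), and its level with the A form exceeded that with the G form by 0.80 (adjusted p = 3.94e-05). Of its 3 other tested probe sets, at -1.29 to -0.28 with the G form, 2 fell. MRTFB, an actin-regulated SRF coactivator, fell by 0.52 with the G form (adjusted p = 0.00147), while its other tested probe set had a difference of 0.11. MRTFA, also among the 5, fell by 0.25 with the G form, but its 4 other tested probe sets, at -0.06 to 0.23, were not called. That MRTFA call ended without any one of 6 arrays (adjusted p of 0.0518 to 0.11). With the A form ELK1, a further ternary complex factor, fell by 0.34 (adjusted p = 0.00455), with -0.23 and no call on its other probe set, and PHACTR1, which binds actin monomers, fell by 0.67 (adjusted p = 0.00597). CRIP2 was the gene that rose, by 0.42, a call that ended without either of 2 arrays (adjusted p of 0.0552 and 0.0729).

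Of 21 further SRF and MRTF target genes, 5 rose and 5 fell with the A form, and 6 rose and 7 fell with the G form. The 5 that rose became 3 without A form replicate 2 or 3 or any one of the G form arrays, and 3 after median centring or quantile normalization. GLIPR1 rose with both forms, by 0.65 (adjusted p = 5.11e-06) with the A form, and LPP, an adhesion protein, fell by 0.75 with the G form (adjusted p = 1.28e-05), with 7 other probe sets between -1.18 and 0.05. CCN2, a matricellular protein, rose by 0.59 with the A form and by 1.89 with the G form, its relative CCN1 rose 2.04-fold with the G form, and VCL, which links filaments to adhesions, fell by 0.56 and 1.06. The other VCL probe set had a difference of 0.00 with the A form, not called, and fell by 0.42 with the G form. Of 17 immediate early targets, 2 rose and 2 fell with the A form, and 5 rose and 3 fell with the G form. Without control replicate 1, 4 rose with the A form. KLF2 and DUSP6 rose with both forms, KLF2 by 0.77 with the A form and 1.34 with the G form, and DUSP6 by 0.60 and 0.43. DUSP5 and FOSL1 fell with both, DUSP5 by 0.45 and 0.34, and FOSL1 by 0.56 and 1.17. EGR1 rose by 1.07 with the G form (adjusted p = 6.05e-06), and FOSB fell by 0.62 from a dim mean of 17.5 to 5.87.

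**Figure D4:**
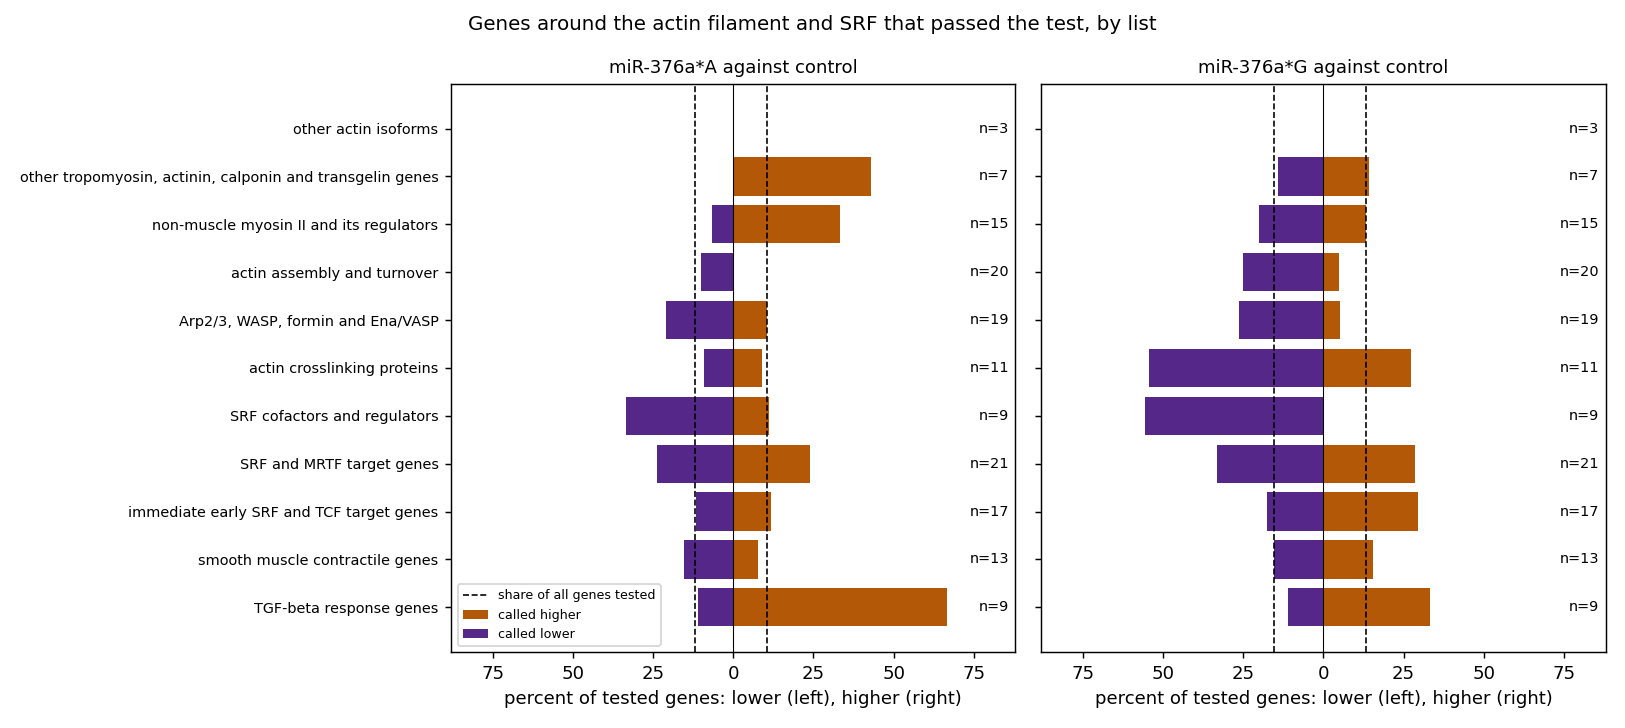
Percent of the tested genes of each list (n at the right) called higher (right of 0) or lower (left of 0) against control, for the A form and the G form, with the share over all genes tested as dashed lines. Read from the brightest probe set of each gene, SRF cofactors and actin crosslinking proteins have 5 of 9 and 6 of 11 genes lower with the G form. TGF-beta response genes have 6 of 9 higher with the A form.

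In the list of other tropomyosin, actinin, calponin and transgelin genes, 3 of 7 rose with the A form, and 1 rose and 1 fell with the G form. CNN3, the acidic calponin of non-muscle cells, rose by 0.39 ± 0.07 with the A form (adjusted p = 0.00191) and by 0.78 ± 0.07, 1.71-fold, with the G form (adjusted p = 7.46e-06), and the forms differed by -0.38 (adjusted p = 0.00244). Its other tested probe set had a difference of 0.10 with the A form, not called, and rose by 0.36 with the G form. TAGLN2 and TAGLN3 were the other A form calls, and the 3 became 1 without A form replicate 1 or 3. ACTN4, the other non-muscle actinin, fell by 0.30 with the G form, which ended without any one of 4 arrays (adjusted p of 0.0565 to 0.104).

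Non-muscle myosin II and its regulators had 5 of 15 genes higher and 1 lower with the A form, and 2 higher and 3 lower with the G form. MYH9, the main non-muscle myosin heavy chain, fell by 0.95 ± 0.07 with the A form, from a mean of 701.7 to 355.2 (adjusted p = 1.27e-06), and was lower with the A form than with the G form by a difference of -0.73 (adjusted p = 1.18e-05). ROCK1, the kinase that raises light chain phosphorylation, rose by 0.58 with each form, and PPP1R12A, the targeting subunit of the phosphatase that removes it, rose by 0.47 and 0.43. MPRIP, a binding partner of that phosphatase, fell by 0.67 with the G form, but its 4 other tested probe sets ranged from -0.67 to 0.49, and PPP1CB, a catalytic subunit, fell by 0.58. The 5 higher genes became 2 without A form replicate 2, and 3 without A form replicate 1 or 3, G form replicate 2 or control replicate 3, as they did after median centring or quantile normalization.

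Of 20 genes of actin assembly and turnover, none rose and 2 fell with the A form, and 1 rose and 5 fell with the G form, or 9 without control replicate 1. CORO1B, a coronin that acts at branched networks, fell by 0.82 and 0.91 (adjusted p = 8.01e-06 and 2.62e-06), as did its other probe set, by 0.53 and 0.62. LIMK2, which phosphorylates cofilin, fell by 0.54 with the G form, and CAP2, which binds actin monomers, rose by 0.60 there, with 0.08 on its other probe set. TMOD3, which caps filament ends, fell by 0.28 with the A form, a call that ended without any one of 8 arrays (adjusted p of 0.0571 to 0.113). Of 19 Arp2/3, WASP, formin and Ena/VASP genes, 2 rose and 4 fell with the A form, and 1 rose and 5 fell with the G form. The 5 became 3 without G form replicate 1 or 2. The A form rises were WASF2 and ARPC3, whose calls ended without 2 and 6 of the arrays in turn (adjusted p of 0.0506 to 0.115), while 4 genes rose without control replicate 1. ARPC3 was also the G form rise, by 0.28, a call that ended without any one of 3 arrays (adjusted p of 0.0599 to 0.0673). The formin DIAPH1 fell by 0.41 with the A form, but its 2 other tested probe sets, at -0.30 and 0.18, were not called. WASL, which activates Arp2/3, fell by 0.31 with the A form, where its 3 other tested probe sets ran from -0.81 to 0.07. The formin DAAM1 and the WAVE protein WASF3 fell by 0.76 and 0.70 with the G form.

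Among 11 actin crosslinking proteins, 1 rose and 1 fell with the A form, and 3 rose and 6 fell with the G form. The 6 became 3 without G form replicate 3, and the 3 became 1 without G form replicate 2 or control replicate 3. SPTAN1, an alpha spectrin among the 6, fell by 0.44 on its brightest probe set. Its 3 other tested probe sets ran from 0.03 to 0.57 with the G form, where 2 rose. SPTBN1, a beta spectrin, rose by 0.70 and 0.52. Its 7 other tested probe sets lay between -0.69 and 0.73 with the A form, where 3 rose and 1 fell. With the G form they lay between -0.40 and 0.43, where 2 rose and 1 fell. RDX, which ties filaments to the membrane, rose by 0.32 with the G form, with 2 other probe sets at -0.07 and 0.01, and the call ended without any one of 3 arrays (adjusted p of 0.0529 to 0.0624). LCP1, a plastin, fell by 0.26 with the A form, a call that ended without any one of 8 arrays (adjusted p of 0.0546 to 0.129). SYNPO, synaptopodin, fell by 0.54 with the G form with 0.10 on its other probe set, and PALLD, palladin, fell by 0.33 with all its tested probe sets below 0.

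Of 13 smooth muscle contractile genes beyond the 10, 1 rose and 2 fell with the A form, beside 10.5% and 12% of all genes, and 2 rose and 2 fell with the G form, beside 13.3% and 15.3%. CSRP2, a LIM protein of smooth muscle, fell by 0.73 with the A form (adjusted p = 0.000606) and rose by 0.40 with the G form (adjusted p = 0.0203), the latter ending without either of 2 arrays, and the forms differed by -1.12 (adjusted p = 1.67e-05). The other CSRP2 probe set, at -0.21 and 0.13, was not called. MYLK rose with the A form, DES rose with the G form and NOTCH3 fell with the G form, and each of these calls against control ended when 1 of 1 to 5 arrays was left out (adjusted p of 0.052 to 0.133). NOTCH3, a receptor of vascular smooth muscle and pericytes, was also higher with the A form than with the G form, by 0.71 (adjusted p = 0.00212). NOTCH3 was dim, and its G form mean of 8.96 lay below the filter signal of about 11.3. Of 9 TGF-beta response genes, which are often read beside smooth muscle genes, 6 rose and 1 fell with the A form, and 3 rose and 1 fell with the G form. The 6 became 3 without A form replicate 1, and 3 after quantile normalization. SKIL, a TGF-beta feedback inhibitor, rose by 0.59 with the A form, and SMAD7, an inhibitory SMAD, fell by 0.34 and 0.59. COL1A1 rose by 0.41 with the G form on its brightest probe set. Its 4 other probe sets lay between -0.57 and 0.79 there, where 1 rose and 2 fell.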

How the data were processed

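The deposited table holds probe set intensities on a linear scale, already scaled between arrays, per the values; the submitters' processing notes name GCOS 1.4.0.036, and the signal algorithm is not given in the sources used here. Per the labels, 1 µg of total RNA from 100000 transfected cells was labelled with biotin. Symbols came from GEO's platform annotation: 41097 probe sets have 1 symbol, 1801 several and 11721 none, and 56 control probe sets without a single symbol were left out. From the deposited values, log2(signal + 16) was taken and fitted with limma 3.58.1 (R 4.3.3; lmFit, contrasts, eBayes with an intensity trend, two-sided) over all 9 arrays, with 6 residual degrees of freedom. The test ran on 32771 probe sets at or above the 40th percentile, adjusted together, and was tested on simulated data. Errors are SD over 3 arrays or the fit's SE (median 0.10), and the number of arrays limits the precision.

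The 10 genes, the gene lists and the markers were chosen with earlier results of these data known. By rule, the text covers every probe set of the 10 genes. In each list it covers the 2 genes of smallest p among those called in each direction against control. It also covers the 4 genes nearest to the one of the 10 genes whose brightest probe set had the largest difference from control. Genes named beyond this were chosen after their values were seen. Alternatives covered scaling, filter, offset, variance model, array weights, the features and arrays fitted, a replicate block and leaving out each array. Of 204 list and marker symbols, 188 were matched. Markers of fibroblasts, endothelial, epithelial, muscle cells and leukocytes were also counted.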

Additional observations from a re-analysis of the deposited data

How the results depend on the processing

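The counts of 4, 3 and 1 of the 10 genes called (A form against control, G form against control, A form against G form) were the same under both other scalings, both filters, both offsets, no intensity trend, 1 probe set per gene and without the array control probe sets. Leaving out each array in turn gave 4 to 5, 3 to 4 and 1 to 1. With array weights the counts were 7, 6 and 2, and TAGLN with the G form turned to -0.25 (adjusted p = 0.0479); the weights ran from 0.198 for control replicate 1 to 6.94 for control replicate 3, so that fit leans on 1 control array. With only the groups compared, the forms differed in 2 genes, TPM4 being added at 0.25 (adjusted p = 0.0268). With the mean of a gene's probe sets the counts were 3, 3 and 1. Fitting the replicate number as a block left the counts at 4, 3 and 1. Same-numbered arrays had correlations of deviations from -0.10 to 0.06. Each A form array matched its own number best among the controls. No G form array did so, and no A form array matched its own number best among the G form arrays. Correlations this small do not settle whether the numbers mark pairs. Of 594 values recomputed, 560 kept their direction and side of the threshold, and most of the others were differences near 0. Dim probe sets, CNN1 among them, have no tested value, and intervals of TPM2, MYL9 and TAGLN are wide because their control arrays differ. Of the list counts of 3 or more, chosen for this after seeing the data, the 5 myosin II genes higher with the A form became 3 with no filter, no intensity trend or the replicate block, and 2 with only the groups compared. The 3 further tropomyosin, actinin, calponin and transgelin genes higher with the A form became 1 with no filter or only the groups compared, and the 5 SRF and MRTF targets became 3 without the trend or with only the groups compared. Immediate early genes higher with the A form went from 2 to 4 at the 60th percentile and to 9 with array weights, which also took the nucleators higher with the A form from 2 to 7 and the genes of actin assembly lower with the G form from 5 to 9.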

Other observations

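Markers of other cell types were read on the same arrays. Of 8 fibroblast markers, 6 passed the filter on dim probe sets, and the summed signal of all 8 was 3822 to 3887 with the A form, 3446 to 3866 with the G form and 3164 to 3391 in control cells. Of the 6, 2 rose and 2 fell with the A form. With the G form 1 rose, COL1A1, on its brightest probe set, while 2 of its other probe sets fell. Of 5 endothelial markers, 3 passed the filter, and the sums over all 5 were 150 to 188, 142 to 167 and 98.9 to 109. Of the 3, 2 rose with each form. These were PECAM1 and TEK with the A form, by 0.71 and 0.48, and KDR and TEK with the G form, by 0.48 and 0.84. The other markers of that list, VWF and CDH5, were below the filter. Of 10 skeletal and cardiac muscle markers, 3 passed it and none was called, and MYOD1, MYOG and MYH7 were below it. Of 6 epithelial markers 2 passed it and none was called. Of 3 matched leukocyte markers only 1 passed it, CD3E, at dim means of 17.4 with the A form, 8.43 with the G form and 18.8 in control cells. It was called lower with the G form, where its mean lies below the filter signal of about 11.3. The part of all these markers in the differences of the 10 genes was not tested.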
